A study of Mus musculus with 4 samples.

Results

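B cell and antigen presentation genes were followed across 4 arrays of RNA from the mouse intestinal epithelium. The 7 genes were Cd79a, Cd79b, Igkv4-55, Ms4a1, Ptprc, Cd74 and B2m, taken by symbol out of 19937 genes on the array, and each was read by 1 probe set. They were chosen by their signals on these same arrays, with the differences of earlier results known, among them those between Msi1 and IgG. Their values are therefore a description, and no test is attached to them. The RNA came from adult C57BL/6 mice and had been crosslinked to protein with ultraviolet light. The Msi1 array carried RNA precipitated with an antibody to Musashi1 (Millipore AB5977), an RNA-binding protein of progenitor cells. For the hnRNP array the antibody was against an hnRNP, one of the abundant proteins that coat new transcripts in the nucleus, and the labels do not name which. The IgG array carried RNA from a nonspecific control precipitation, and the input array carried RNA labelled as not precipitated. Every group had 1 array, each of RNA combined from 2 experiments, so there was no replicate and no spread against which a difference could be tested.

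B cells recognise antigen through a surface immunoglobulin whose signal is carried into the cell by the CD79A and CD79B chains, which bear tyrosine activation motifs. Nucleated cells display peptides to T cells on MHC class I molecules, whose light chain is beta-2 microglobulin. Professional antigen-presenting cells, and gut epithelium under interferon, load peptides on MHC class II molecules with the help of the invariant chain, CD74. In the gut wall B cells and plasma cells lie below the epithelium, in the lamina propria and in lymphoid follicles.

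Signals are log2 values as deposited, with the base inferred from their range of 1.07 to 14.3. A detection floor was set on each array at the 95th percentile of the signals of 1210 probe sets for odorant and vomeronasal receptors, which gut epithelium is not known to use. The floor was 4.74 on the Msi1, 5.17 on the hnRNP, 5.26 on the IgG and 4.08 on the input array. Background itself was thus higher on the precipitated arrays, and the receptor probe sets differed by a median of 0.97 between IgG and input, of 0.89 between hnRNP and input and of 0.57 between Msi1 and input. Between Msi1 and IgG their median was −0.39. Over all 19937 genes the median difference was 0.36 for IgG minus input and −0.19 for Msi1 minus IgG as deposited, and −0.03 and −0.05 with each array centred on its median. A gene was counted in a comparison if either of its arrays showed it above the floor, and a difference of 1 log2 unit, which is 2-fold, was called higher or lower. Where the dimmer value lay below its floor, the fold is given against that floor as a lower bound.

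The 7 genes were not uniformly present. On the input array 5 of them exceeded the floor, and 3 did so on each of the Msi1, hnRNP and IgG arrays. Igkv4-55 was the only one of the 7 above the floor on all 4 arrays, and Ms4a1 was below it on all 4. The signal on the input array stood far over the floor for B2m (by 7.63) and Cd74 (by 5.66), and by less than 1 log2 unit for Ptprc (0.78), Cd79b (0.52) and Igkv4-55 (0.28). On input the B cell genes were therefore close to background and the antigen presentation genes were not. On IgG it was Igkv4-55 that stood furthest over the floor (2.71), while B2m was 0.30 over it and Cd74 below it.

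**Figure D1:**
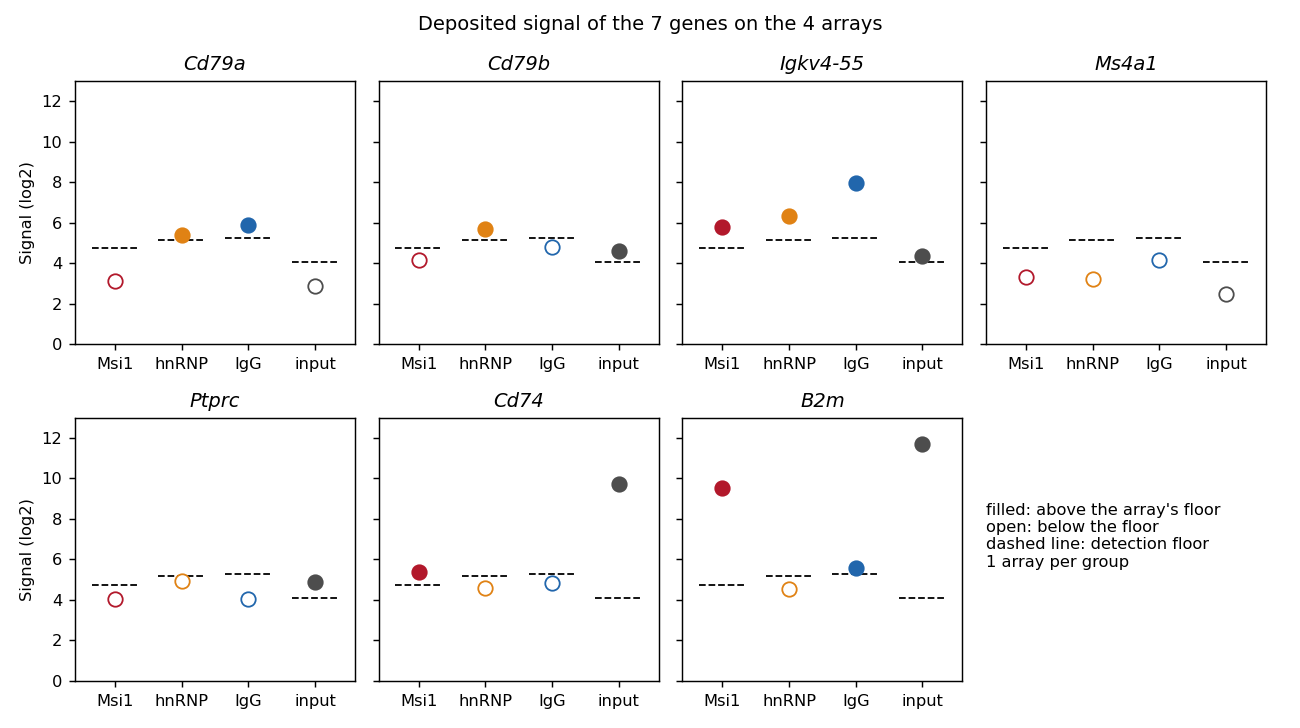
Deposited log2 signal (vertical axis) of the 7 genes on the Msi1, hnRNP, IgG and input arrays, with 1 point per array, filled where it exceeds that array's detection floor (dashed line). B2m reads 9.51 on Msi1 and 11.72 on input but lies near or below the floor on hnRNP and IgG, whereas Igkv4-55 is brightest on IgG at 7.98.

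Cd79a encodes the immunoglobulin alpha chain of the B cell receptor. Its signal was 3.11 on the Msi1, 5.38 on the hnRNP, 5.88 on the IgG and 2.90 on the input array. The hnRNP and IgG values exceeded their floors, by 0.21 and 0.61, and the Msi1 and input values lay below theirs by 1.63 and 1.19. Cd79a was at least 2.20-fold lower on Msi1 than on IgG, a difference of −1.14 with the Msi1 value raised to its floor and of −2.77 as deposited. On IgG it was at least 3.46-fold higher than on input, a difference of 1.79 with the input value raised to its floor and of 2.98 as deposited. On hnRNP it was at least 2.45-fold higher than on input (2.48 as deposited). The hnRNP and IgG arrays differed by −0.50 for this gene, less than 2-fold.

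Cd79b encodes the partner chain, immunoglobulin beta, and followed Cd79a across the arrays only in part. Its signal was 4.17 on the Msi1, 5.67 on the hnRNP, 4.82 on the IgG and 4.61 on the input array, above the floor on hnRNP and input. It was brightest on hnRNP, where Cd79a was brightest on IgG. The difference between IgG and input was 0.21 for Cd79b, against 2.98 for Cd79a. Between Msi1 and IgG the Cd79b values were both below their floors, so the difference of −0.65 was not counted. On hnRNP it was higher than on input by 1.06 (2.09-fold), and by 0.68 with each array centred on its median, which is under 2-fold. The products of both genes are needed for the receptor to reach the cell surface. As deposited, hnRNP and IgG read above Msi1 and input for both, but the order within each of those pairs of arrays differed. For Cd79b the IgG value lay below its floor. Its excess over input became −0.18 with each array centred on its median and −0.76 with each centred on its receptor median. For Cd79a the Msi1 and input values were both below their floors.

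Igkv4-55 is a variable segment of the immunoglobulin kappa light chain. Its signal was 5.78 on the Msi1, 6.32 on the hnRNP, 7.98 on the IgG and 4.36 on the input array. IgG was the brightest of the 4 by more than 1 log2 unit, and input lay only 0.28 over its floor. On IgG the gene was 12.2-fold higher than on input (3.61), the third highest difference of the 12696 genes counted. It was 4.58-fold lower on Msi1 than on IgG (−2.20), eighth from the lowest, and 3.15-fold lower on hnRNP than on IgG (−1.66). Msi1 and hnRNP nevertheless both exceeded input for it, by 1.42 (2.67-fold) and 1.96 (3.88-fold). With each array centred on the median of its receptor probe sets, the excess of Msi1 over input was 0.80, which is under 2-fold. Variable kappa segments are closely related in sequence, so RNA of other kappa segments could have contributed to this probe set, and that was not tested.

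Ms4a1 encodes CD20, a surface protein of B cells that is lost when they become plasma cells. Its signal was 3.30 on the Msi1, 3.23 on the hnRNP, 4.14 on the IgG and 2.48 on the input array. All 4 values were under the floor, by 1.44, 1.93, 1.13 and 1.60, so Ms4a1 was in no comparison. Ptprc encodes CD45, the phosphatase carried by leukocytes in general. Its signal was 4.05 on the Msi1, 4.96 on the hnRNP, 4.02 on the IgG and 4.86 on the input array, and of these it exceeded the floor on input alone. It differed by −0.81 between Msi1 and input and by −0.84 between IgG and input, both under 2-fold. With each array centred on its median these became −1.06 and −1.23, past 2-fold, so the scaling decided on which side of 2-fold Ptprc fell.

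Cd74 encodes the invariant chain that escorts MHC class II molecules to the endosome. Its signal was 5.40 on the Msi1, 4.61 on the hnRNP, 4.85 on the IgG and 9.74 on the input array. Only Msi1, among the precipitated arrays, exceeded its floor for Cd74, by 0.67. Against input the gene was 20.2-fold lower on Msi1 (−4.34), at least 23.9-fold lower on hnRNP (−5.14) and at least 22.3-fold lower on IgG (−4.89). With loess centring these became −2.51 on Msi1, −2.09 on hnRNP and −1.68 on IgG, still past 2-fold. Msi1 and IgG differed by 0.55, under 2-fold. Cd74 thus had a strong input signal and was close to background with each of the antibodies.

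B2m encodes beta-2 microglobulin, the light chain of MHC class I molecules. Its signal was 9.51 on the Msi1, 4.56 on the hnRNP, 5.56 on the IgG and 11.72 on the input array. Msi1 and input stood far apart from the remaining arrays, since the IgG value was only 0.30 over its floor and the hnRNP value was below its own. B2m was 15.4-fold higher on Msi1 than on IgG (3.95), 88th from the top of 10372 genes, and at least 20.3-fold higher on Msi1 than on hnRNP (4.95). It was 71.3-fold lower on IgG than on input (−6.15) and at least 93.8-fold lower on hnRNP than on input (−7.16), while on Msi1 it was 4.62-fold lower than on input (−2.21). The differences from input depended on scaling. The Msi1 one was −0.94 with quantile normalization and 0.25 with loess centring, and loess centring also left −1.52 for IgG and −3.02 for hnRNP. B2m was also lower on hnRNP than on IgG by −1.01, just past 2-fold, and with the hnRNP value raised to its floor this was −0.40.

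B2m and Cd74 were the members with strong input signals, and they differed in how much of the signal was seen with the Msi1 antibody. The Msi1 minus IgG difference was larger for B2m than for Cd74 by 3.40 log2 units, with the IgG value of Cd74 below its floor, and the Msi1 minus input difference by 2.13. On hnRNP both were below the floor, so no such contrast is given there. These contrasts between the pair carry no estimate of error, and they share the same arrays.

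**Figure D2:**
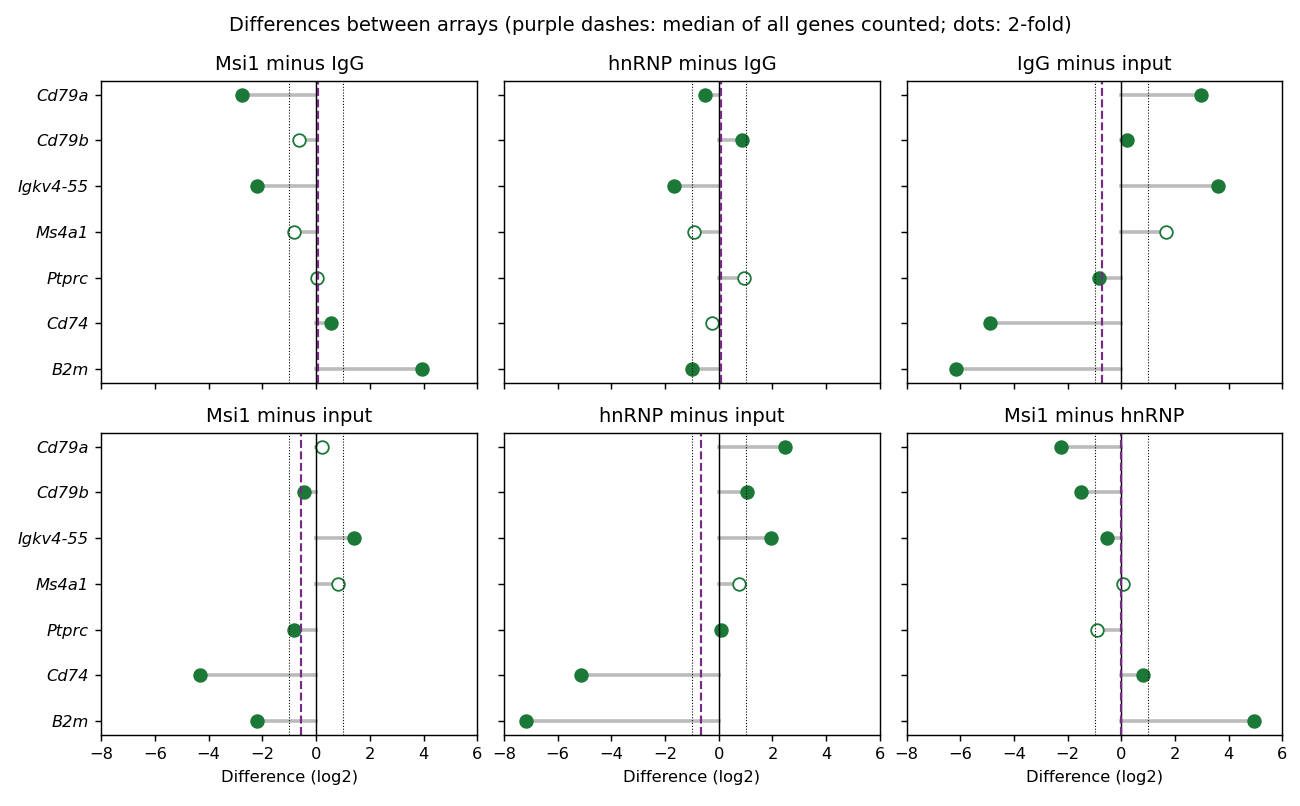
Difference in log2 signal (horizontal axis) of each of the 7 genes in 6 comparisons, filled where the gene was above the floor of either array; dotted lines mark 2-fold and the purple dashes the median of all genes counted. As deposited, B2m is at 3.95 and Cd79a at −2.77 in Msi1 minus IgG, the opposite ends of the 7, and in IgG minus input B2m is at −6.15 and Igkv4-55 at 3.61. The Msi1 value of Cd79a lies below its floor, and raised to that floor it gives −1.14 in Msi1 minus IgG.

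In Msi1 against IgG, 4 of the 7 genes were counted, of which 1 was higher (B2m) and 2 were lower (Cd79a and Igkv4-55), where 18.6% of all genes counted were higher and 6.9% lower. In hnRNP against IgG, 4 were counted, none was higher and 2 were lower (Igkv4-55 and B2m), where 6.28% of all genes were higher and 4.51% lower. In IgG against input, 6 were counted, with 2 higher (Cd79a and Igkv4-55) and 2 lower (Cd74 and B2m), where 16.6% of all genes were higher and 44.7% lower. The genes were chosen with such differences in view, so nothing is read from these shares.

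The other comparisons were counted in the same way. In Msi1 against input, 5 were counted, with 1 higher (Igkv4-55) and 2 lower (Cd74 and B2m), where 11.8% of all genes were higher and 38.3% lower. In hnRNP against input, 6 were counted, with 3 higher (Cd79a, Cd79b and Igkv4-55) and 2 lower (Cd74 and B2m), where 18.7% were higher and 43.3% lower. In Msi1 against hnRNP, 5 were counted, with 1 higher (B2m) and 2 lower (Cd79a by −2.27 and Cd79b by −1.50), where 17.4% were higher and 7.79% lower. With values below the floor raised to it, both of those lower calls were under 2-fold, at −0.64 and −0.93. Comparisons that share an array are not independent of each other.

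**Figure D3:**
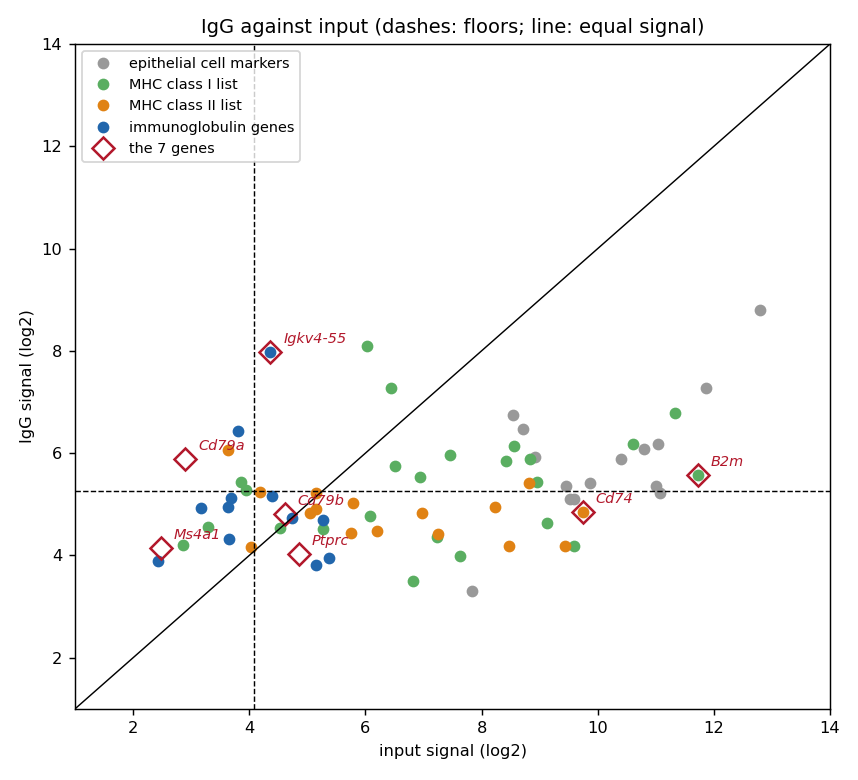
IgG signal (vertical axis, log2) against input signal (horizontal axis, log2) for the 7 genes (open diamonds) and for genes of 4 lists, with floors as dashed lines and equal signal as the solid line. Igkv4-55 (7.98 on IgG, 4.36 on input) and Cd79a (5.88 and 2.90) lie above the line of equal signal, and B2m (5.56 and 11.72) and Cd74 (4.85 and 9.74) lie far below it among the epithelial markers.

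Genes that act beside B2m in the class I pathway were higher with Msi1 in part. Of 24 listed genes of MHC class I and peptide loading on the array, B2m included, 19 were counted in Msi1 against IgG. Of the 19, 7 were higher, B2m among them, and 0 lower, where 18.6% of all genes were higher and 6.9% lower. The median was 0.37, where that of all genes counted was 0.06. After B2m the highest was Pdia3, a disulphide isomerase of the loading complex, at 3.68 (at least 8.33-fold). Canx, a chaperone of the endoplasmic reticulum, was 8.60-fold higher (3.10) and the proteasome activator Psme2 at least 2.17-fold (2.21). Those 3 genes serve protein folding or breakdown in most cells and not class I alone. The class I heavy chain gene H2-Q2 was 3.30-fold higher (1.72), and H2-Bl (1.44) and the trimming peptidase Erap1 (1.34) were also called. The IgG values of H2-Bl and Erap1 lay below the floor, which bounds H2-Bl at 1.12-fold or more and leaves no bound for Erap1. H2-Q2 and H2-Bl belong to a family of similar sequences, so their probe sets may share signal. The lowest were Nlrc5, the class I transactivator, at −0.74 and Mr1, a class I-like gene, at −0.60, neither of them 2-fold. Nlrc5 was read by 19 probe sets, of which the brightest over the 4 arrays was used.

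Of the genes that act beside Cd74 in the class II pathway, none was called higher with Msi1. Of 16 on the array, Cd74 included, 11 were counted in Msi1 against IgG, and 0 were higher and 1 was lower, where 18.6% of all genes were higher and 6.9% lower. The median was 0.45, where that of all genes counted was 0.06. The lower one was H2-Oa, a chain of the H2-O peptide editor, at −1.55 (at least 2.49-fold). The highest were Rfxank, a subunit of the factor that drives class II promoters, at 0.82 and the thiol reductase Ifi30 at 0.72, both under 2-fold. With quantile normalization 2 class II genes were higher. The class II chains H2-Ab1 and H2-Eb1 differed by −0.01 and 0.49. Whether the class I and class II lists differ was not tested.

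Against input the class I and class II lists both lay lower on IgG. Of all genes counted in IgG against input, 44.7% were lower and 16.6% higher, with a median of −0.71. Of 22 class I genes counted, 15 were lower and 3 higher, with a median of −2.50. Psme2 was at least 20.1-fold lower (−5.42), second to B2m, and Nlrc5 (2.07, 4.19-fold) and Mr1 (1.57, at least 2.54-fold) were the highest. Of 15 class II genes counted, 9 were lower and 2 higher, with a median of −1.72. Ifi30 was at least 18.1-fold lower (−5.26), and H2-Oa was at least 3.91-fold higher (2.42). H2-Ob, the other H2-O chain, differed by 1.06 but its IgG value lay below the floor. With loess centring 6 class I genes were lower in place of 15, and B2m (−1.52) and Cd74 (−1.68) were among the genes still lower.

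Class II transcripts other than Cd74 were well over the floor on input. H2-Aa read 4.54 on Msi1, 5.0 on hnRNP, 4.18 on IgG and 8.47 on input, below the floor on the 3 precipitated arrays. H2-Ab1 read 5.41 on Msi1, 4.29 on hnRNP, 5.41 on IgG and 8.82 on input, over the floor on Msi1, IgG and input. H2-Eb1 read 5.43 on Msi1, 4.98 on hnRNP, 4.94 on IgG and 8.22 on input. Input was the brightest array for each of these 3 chains, as it was for Cd74. Ciita, the class II transactivator, read 4.92, 4.68, 4.84 and 5.04 on the Msi1, hnRNP, IgG and input arrays.

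**Figure D4:**
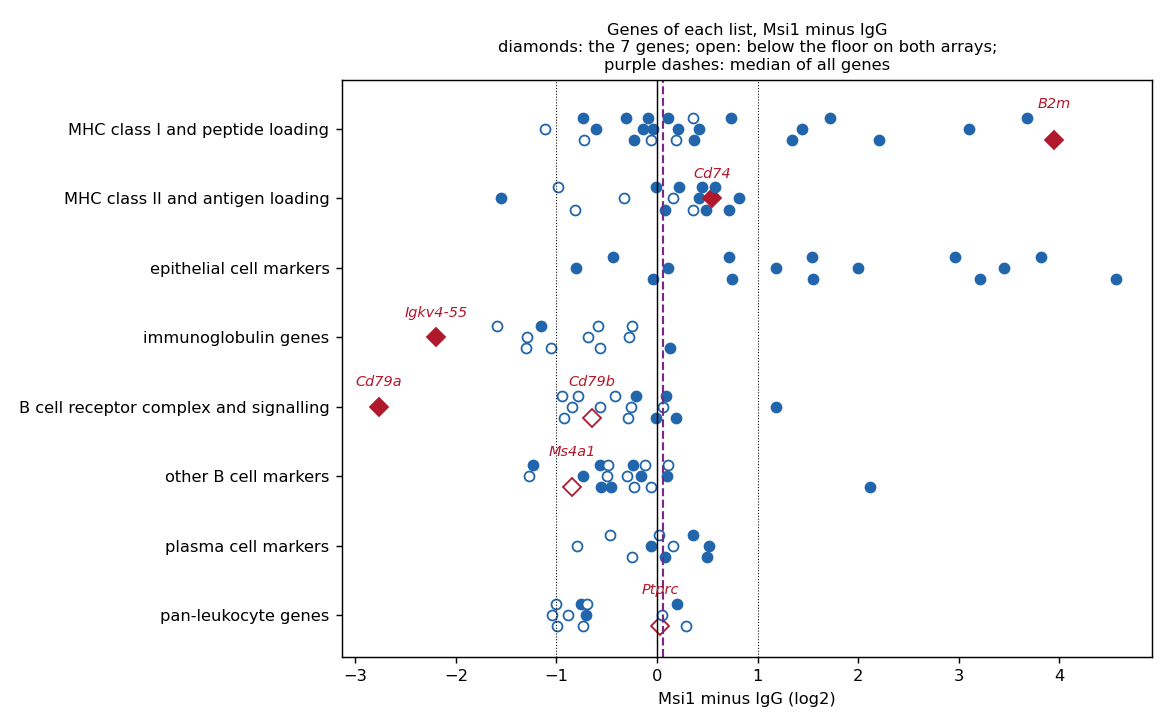
Difference between Msi1 and IgG in log2 signal (horizontal axis) for every gene of 8 lists, filled where the gene was above the floor of either array, with the 7 genes as labelled diamonds. The class I list reaches from Nlrc5 at −0.74 to B2m at 3.95 among filled points, while no filled class II gene passes 2-fold upward.

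Other genes of the B cell receptor and B cell lists were mostly near the floor. Of 16 receptor and signalling genes on the array, 11 exceeded a floor on at least 1 array. In Msi1 against IgG 6 were counted, with 1 higher and 1 lower (Cd79a), where 18.6% of all genes were higher and 6.9% lower. The higher one was the tetraspanin Cd81 at 1.18 (at least 1.35-fold), which many cell types use and which was at least 23.5-fold lower on IgG than on input (−5.31). Pik3ap1, an adaptor that links the receptor to PI3K, differed by −0.21 and the kinase Syk by 0.19. In IgG against input, 11 were counted, where 16.6% of all genes were higher and 44.7% lower. Of the 11, 1 was higher, again Cd79a, while Cd81 and the adaptor Dapp1 (−3.35, at least 6.33-fold) were lower. The kinase Blk, next after Cd79a, differed by 0.51. With each array centred on its receptor median, 6 genes of this list were lower on IgG than on input in place of 2.

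Of 18 further B cell markers, 9 were counted in Msi1 against IgG, where 18.6% of all genes were higher and 6.9% lower. Of the 9, 1 was higher and 1 lower, with a median of −0.46. Ralgps2, an exchange factor for Ral, was higher (2.12, at least 2.60-fold), and Vpreb3, a gene of B cell precursors, was lower (−1.24, at least 1.63-fold). Pax5, the transcription factor that fixes B cell identity, differed by 0.10 and Fcmr, the IgM receptor, by −0.73. In IgG against input, where 16.6% of all genes were higher and 44.7% lower, 11 were counted. Of these 5 were higher and 1 was lower, with a median of 0.92. Pax5 (1.72, at least 2.86-fold) and Fcmr (1.56, at least 2.37-fold) were the highest, and Ralgps2 (−1.76) was the lowest. The receptor probe sets that define background had a median of 0.97 in the same comparison, and 47.8% of them were at least 2-fold higher on IgG than on input. With each array centred on its receptor median, 0 of these B cell markers were higher on IgG. The same centring gave 2.01 for Cd79a, whose input value lay 1.19 below its floor, and 2.65 for Igkv4-55, above the floor on both arrays. Both genes were chosen by their signals on these arrays, so nothing is read from setting them beside the list. The part of background in the B cell values was not tested.

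Plasma cell genes were counted in the same comparisons. Of 10 markers, 6 were counted in IgG against input, of which 0 were higher and 4 lower, with a median of −1.31, where 16.6% of all genes were higher and 44.7% lower. Jchain, which joins secreted IgA and IgM, read 3.51 on Msi1, 4.01 on hnRNP, 3.49 on IgG and 3.88 on input, below every floor. Edem1 (−4.06, at least 14.2-fold) and the transcription factor Xbp1 (−2.45, 5.48-fold) were the lowest, and secretory epithelial cells use both. Derl3 (0.55) and Prdm1 (0.29) were the highest, both under 2-fold. With quantile normalization 1 of these markers was lower and 0 were higher, and with loess centring 1 was lower and 1 higher. In Msi1 against IgG, 5 were counted and none was higher or lower, from Edem1 at 0.51 and Xbp1 at 0.50 down to Tent5c at 0.08 and Derl3 at −0.06.

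Immunoglobulin genes did not all share the pattern of Igkv4-55. Of 12 with a probe set of their own, 7 exceeded a floor on at least 1 array. With values below the floor included, IgG was the brightest array for 6 of the 12, hnRNP for 2 and input for 4. Above the floor were 3 of the 12 on Msi1, 3 on hnRNP, 2 on IgG and 6 on input. Background was also higher on IgG than on input, by a median of 0.97 for the receptor probe sets. Igkv8-30 resembled Igkv4-55 in part, with 5.28 on Msi1, 6.33 on hnRNP, 6.43 on IgG and 3.81 on input. It was at least 5.09-fold higher on IgG than on input (2.62) and 2.22-fold lower on Msi1 than on IgG (−1.15). Both were the only genes of the list called in these directions. Between hnRNP and IgG, however, Igkv8-30 differed by only −0.10, where Igkv4-55 was 3.15-fold lower on hnRNP (−1.66). Centring on the receptor median left 1 gene of the list lower on Msi1 than on IgG in place of 2, and Igkv4-55 was at −1.85.

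The heavy chain constant regions were near or below the floor. Igha, the heavy chain of the main gut antibody, read 3.64 on Msi1, 4.26 on hnRNP, 4.69 on IgG and 5.26 on input, and exceeded the floor on input alone. Ighm, the IgM heavy chain, read 4.14 on Msi1, 4.64 on hnRNP, 4.72 on IgG and 4.74 on input. Ighg3, a heavy chain of IgG, read 3.34 on Msi1, 3.18 on hnRNP, 4.94 on IgG and 3.17 on input, brightest on IgG but below the floor on each array, so it was not counted. The detected constant regions, Igha and Ighm, were not higher on IgG than on input.

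The remaining detected genes of the list were split as well. Igkv9-120 read 3.39 on Msi1, 3.79 on hnRNP, 3.96 on IgG and 5.38 on input, and Igkv10-96 read 3.55, 3.82, 3.82 and 5.15 in the same order. Both were brightest on input and were called lower on IgG (−1.42 and −1.33), but their IgG values lay below the floor, which leaves a bound of at least 1.08-fold for Igkv9-120 and none for Igkv10-96. Igll1, a surrogate light chain gene of B cell precursors, read 5.28 on Msi1, 5.97 on hnRNP, 5.15 on IgG and 4.39 on input.

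Markers of other cells were set beside the 7 genes. Of 15 epithelial markers, 15 exceeded the floor on Msi1, 10 on hnRNP, 11 on IgG and 15 on input, with medians of 7.07, 5.55, 5.89 and 9.87. In Msi1 against IgG 9 of the 15 were higher and 0 lower, with a median of 1.55, where 18.6% of all genes were higher. In IgG against input all 15 were lower, where 44.7% of all genes were, though with loess centring 5 were lower and 3 higher. In Msi1 against IgG the highest was Fabp2, which binds fatty acids in enterocytes (4.56, at least 22.9-fold). Next was Pigr, the epithelial receptor that carries IgA (3.82, 14.1-fold). Cldn3 (−0.81) and Krt18 (−0.44) were the lowest. B2m, at 3.95 (15.4-fold), lay between Fabp2 and Pigr, well over the median of these epithelial genes.

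Pan-leukocyte markers were detected most often on input, as were all genes (59.1% there, 47.8% on Msi1, 32.9% on hnRNP and 28.1% on IgG). Of 12 such genes, 3 exceeded the floor on Msi1, 2 on hnRNP, 2 on IgG and 9 on input, with medians of 4.0, 4.80, 4.69 and 4.95. In Msi1 against IgG 3 were counted, none 2-fold apart, with Rac2 at −0.76, Ptprcap at −0.70 and Cytip at 0.20. In IgG against input Ptprcap, which associates with CD45, was higher (1.15, 2.23-fold), while Lcp1 was lower (−1.54, at least 1.10-fold) and Rac2 differed by 0.65. With each array centred on its receptor median, 6 of these genes were lower on IgG than on input and 0 higher. A low signal on the input array cannot tell apart fewer cells of a type and less RNA per cell. The differences of a precipitated array from input measure neither.

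T cell and myeloid markers were detected most often on input, where 59.1% of all genes exceeded the floor. The share of all genes was 47.8% on Msi1, 32.9% on hnRNP and 28.1% on IgG. Of 14 T cell and intraepithelial lymphocyte markers, 4 exceeded the floor on Msi1, 5 on hnRNP, 2 on IgG and 10 on input. In IgG against input 5 of 10 were lower and 2 higher, where 44.7% of all genes were lower and 16.6% higher. The lowest of the 10 were the chemokine Ccl5 (−3.31, at least 7.76-fold) and Cd3g (−2.43). The highest were the adhesion receptor Cd2 (1.69, 3.22-fold) and the adaptor Lat (1.38, 2.60-fold), and with receptor centring 0 were higher. In Msi1 against IgG Lat was the 1 gene called of 4 counted (−1.37, 2.59-fold lower), with Cd2 at −0.89, Cd8a at 0.09 and Ccl5 at 0.25. Of all genes counted in that comparison, 18.6% were higher and 6.9% lower. Of 16 myeloid markers, 4 exceeded the floor on Msi1, 3 on hnRNP, 3 on IgG and 7 on input. Lysozyme Lyz2 was 8.36-fold lower on IgG than on input (−3.06) and the adaptor Tyrobp 2.10-fold higher (1.07), with Cx3cr1 at 0.85 and Cd68 at −0.51. None of 4 counted was called in Msi1 against IgG, where Tyrobp was at −0.91, Lyz2 at −0.59, Cx3cr1 at −0.51 and Cd14 at 0.24. The part of these cells in the values of the 7 genes was not tested.

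For each gene the 3 genes of most similar pattern were sought among 12680 genes, by the Euclidean distance between the 4 log2 values after each gene was centred on its own mean. B2m was nearest to Fabp2 (distance 0.67), to Ccl25 (0.70), a chemokine of small intestinal epithelium, and to Sis (0.74), the enterocyte sucrase-isomaltase. Cd74 was nearest to the sulphate transporter Slc13a1 and the actin regulator Cap1 (both 0.15) and to the respiratory chain gene Uqcrc2 (0.20). Matching to genes far brighter on input than on IgG itself favours neighbours with high input signal, so that signal is no separate result. Sis, for example, read 8.34 on Msi1, 4.40 on hnRNP, 4.91 on IgG and 11.25 on input.

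The B cell genes had other neighbours. Cd79a was nearest to the potassium channel gene Kcnj14 (0.17), then to Defb35 (0.66) and Prp2 (0.67). Igkv4-55 was nearest to Kctd7 (0.48), Mrgpra6 (0.53) and Marchf11 (0.57). Cd79b was nearest to Wdr34 (0.08), Chrne (0.13) and Krt12 (0.17), Ptprc to Ptov1 (0.06), Ethe1 (0.12) and Bbs9 (0.14), and Ms4a1 to Kctd14 (0.03), Gfra2 (0.05) and Mmp9 (0.06). None of these is a gene of the B cell lists. Values below the floor entered the distances unchanged. Ms4a1 lay below it on every array, Ptprc on all but input, Cd79a on Msi1 and input, and Cd79b on Msi1 and IgG. The part of background in these distances was not tested. Among the 7 genes themselves, Cd79a was closer to Igkv4-55 (1.30) than to its partner Cd79b (2.06), and Cd79b was closest to Ptprc (0.86). B2m and Cd74 were 3.15 apart, and each was further than that from every one of the B cell genes and from Ptprc.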

How the data were processed

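Per the labels, RNA of crosslinked mouse intestinal epithelium was precipitated with 1 of 3 antibodies or kept as input, and 100 ng was labelled for an Affymetrix Mouse Gene 1.0 ST array. The authors deposited 1 log2 value per probe set and array, taken here without change. Per the submitters' processing notes the tool was affy. How background was corrected, how arrays were scaled and which log base was used is not stated in the labels. Standard deviations over all probe sets ranged from 1.17 to 2.01, so the arrays had not been quantile normalized at this level.

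Of 34760 probe sets, 21640 carried 1 gene symbol and gave 19937 genes, 1321 carried several and 11799 none here. Entrez identifiers matched 21553 probe sets to RefSeq (GRCm38.p6). A gene with several probe sets was read from the brightest by the mean of its 4 values. On arrays the signal over the floor takes the place of depth, and the number of arrays limits the precision. Differences were counted at 2-fold and not tested, since each group had 1 array. The members, the 10 lists and the settings were chosen with earlier results of these data known. Named genes were the 7 members, the 2 highest and 2 lowest counted genes of each list in Msi1 against IgG and IgG against input, immunoglobulin genes above a floor, and the 3 nearest genes by pattern, without predicted genes, clones, receptors, microRNAs and small nucleolar RNAs. Further genes of the class I and class II lists and Jchain were named after their values were seen. Alternatives were 3 scalings, other floors, thresholds and probe set rules, and, added after the data were seen, centring on the receptor probe sets and lists without the members. The steps were tested on simulated data. Python 3.11.15, pandas 2.3.3, numpy 2.4.6, statsmodels 0.14.6 and matplotlib 3.10.9 were used.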

Additional observations from a re-analysis of the deposited data

How the results depend on the processing

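The values rest on 1 array per group, and most B cell genes lay near the floor, where the signal limits what can be seen. No paired analysis was possible because no group had a second array, and no array could be left out for the same reason. Of 504 values of the 7 genes under other settings, 459 kept their call or lack of one, 28 lost a call, 16 gained one and 1 reversed. That reversal was B2m in Msi1 minus input, at 0.25 with loess centring in place of −2.21. The main counts, higher and lower, were 1 and 2 of the 7 genes in Msi1 minus IgG, 0 and 2 in hnRNP minus IgG, 2 and 2 in IgG minus input, 1 and 2 in Msi1 minus input, 3 and 2 in hnRNP minus input, and 1 and 2 in Msi1 minus hnRNP. For the class I list they were 7 and 0 in Msi1 minus IgG and 3 and 15 in IgG minus input, and for the class II list 0 and 1, and 2 and 9. With median centring, hnRNP minus IgG had 1 of the 7 genes lower, and 1 class II gene was higher in IgG minus input. With quantile normalization 1 of the 7 was higher in hnRNP minus IgG, 1 lower in Msi1 minus input and 2 higher in Msi1 minus hnRNP. In the lists it gave 1 class I gene lower and 2 class II genes higher in Msi1 minus IgG, and 1 class II gene higher in IgG minus input. Loess centring gave 1 class I gene lower in Msi1 minus IgG, and 6 class I genes lower and 1 class II gene higher in IgG minus input. A floor at the 99th percentile left 1 of the 7 lower in hnRNP minus IgG, 1 higher in hnRNP minus input and 0 lower in Msi1 minus hnRNP, with 1 class I and 1 class II gene higher in IgG minus input. Without a floor 1 class I gene was lower in Msi1 minus IgG and 5 were higher in IgG minus input. Detection on both arrays left 1 of the 7 lower in Msi1 minus IgG and in hnRNP minus IgG, 1 higher and 1 lower in IgG minus input, 0 lower in hnRNP minus input, and 0 higher and 0 lower in Msi1 minus hnRNP. It left 3 class I genes higher and 0 class II genes lower in Msi1 minus IgG, and in IgG minus input 1 class I gene higher and 9 lower, and 0 class II genes higher and 1 lower. This setting leaves out every gene that is below background on 1 array. With low values raised to the floor, 1 of the 7 was lower in hnRNP minus IgG and 0 in Msi1 minus hnRNP. At 1.5-fold, 1 of the 7 was higher in hnRNP minus IgG and 2 in Msi1 minus hnRNP, with 2 class I genes lower and 2 class II genes higher in Msi1 minus IgG. At 3-fold, 1 of the 7 was lower in hnRNP minus IgG, 0 higher in Msi1 minus input and 1 lower in Msi1 minus hnRNP, with 0 class II genes lower in Msi1 minus IgG and 1 class I and 1 class II gene higher in IgG minus input. With the probe set brightest on input, 1 class I gene was lower in Msi1 minus IgG. With each array centred on its receptor median, an alternative chosen after seeing the data, 1 of the 7 was lower in hnRNP minus IgG, 0 were higher and 4 lower in Msi1 minus input, and 2 higher in Msi1 minus hnRNP. It gave 2 class II genes higher in Msi1 minus IgG, and 1 class I and 1 class II gene higher in IgG minus input. Apart from changes that follow from the setting itself, the cause was not tested. Lists without the 7 genes, also added after seeing the data, kept the class I and class II counts within 1.5 times.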

Other observations

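A further 16 probe sets carried several symbols with at least 1 immunoglobulin gene among them, and none is named here for that reason. Input was the brightest array for 11 of the 16, Msi1 for 2, IgG for 2 and hnRNP for 1. On the floors used above, 4 were detected on Msi1, 2 on hnRNP, 2 on IgG and 11 on input. In IgG minus input, where 16.6% of all genes were higher and 44.7% lower, 12 were counted. Of these 2 were higher and 8 lower, with a median of −1.49 and a range of −2.30 to 1.62. In Msi1 minus IgG 4 were counted, none 2-fold apart, with a range of −0.34 to 0.51. The 2 higher of 12 were near the share of all genes, so nothing is read from them. Unlike Igkv4-55 and Igkv8-30, both read higher on Msi1 than on IgG, at 7.23 against 7.15 and 5.89 against 5.37. The excess of IgG over Msi1 that Igkv4-55 and Igkv8-30 showed was called for none of the 16.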
